A study of Mus musculus with 20 samples.

Results

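The response of bone marrow-derived macrophages to interferon gamma (IFN-γ) and CpG DNA given together for 15 h was described across transcribed enhancers, against unstimulated cells. The comparison was set by the sample labels: it used 4 of the 20 libraries, 2 of cells that had both stimuli for 15 h and 2 of unstimulated cells (0 h). Its units were the 11222 enhancers of the deposited count table, of which 2792 had enough tags to be tested; the other 8430 were too sparse. Genomic positions are on mm39 and are given as deposited.

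All groups were C57BL/6 macrophages, grown from marrow in M-CSF that came from conditioned medium of L929 cells. The other groups used here had both stimuli for 3 or 9 h, or IFN-γ alone or CpG alone for 3, 9 or 15 h, with 2 libraries each, which the series calls biological replicates. The protocols also describe a polarization with IL-4 and IL-10 and a stimulation longer than any time on the sample labels, and whether either step or its doses apply to these cells is not stated. No untreated cells were collected at 3, 9 or 15 h, so that the stimuli and the added time in culture cannot be told apart. The macrophage label could not be checked against marker genes, because genes near the enhancers were not assigned (the annotation at hand is of another build).

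IFN-γ is the main activating cytokine of macrophages; its receptor acts through JAK kinases, and the response includes transcription factors of the IRF family. CpG DNA mimics unmethylated bacterial DNA and is sensed in endosomes by TLR9, which signals through MYD88 to NF-κB and AP-1. Active enhancers are themselves transcribed from both strands into short, unstable RNAs, and cap analysis of gene expression (CAGE), which reads the capped 5′ ends of RNA, picks these up as tags. Whether the stimulating oligonucleotide of the protocol was the CpG DNA given to these cells is not stated. It is shown because it is a TLR9 ligand, with its CpG dinucleotides in capitals, 5′ to 3′.
CpG ODN-1826: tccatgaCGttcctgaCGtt

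Whole libraries held 13558931 and 12825701 tags with both stimuli at 15 h, against 13826739 and 13435564 in unstimulated cells. Of these, 22187 and 26745 tags lay in enhancers with both stimuli, against 22026 and 20301 in unstimulated cells. Scaled to the total of the whole library, which gives the unit RPM, this was 1636 and 2085 RPM with both stimuli, against 1593 and 1511 RPM in unstimulated cells. The summed enhancer level was thus higher in both stimulated libraries, but with 2 libraries a side the smallest p an exact permutation test allows is 0.333. A tag was found at 6811 and 7416 enhancers with both stimuli, against 6282 and 5987 in unstimulated cells. A tested enhancer had a median of 3 tags per library, so that single enhancers were read thinly. The replicates correlated across tested enhancers at r = 0.745 with both stimuli and 0.802 without. In bulk samples, fewer active cells and less RNA per cell cannot be told apart.

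With both stimuli at 15 h, 435 of the 2792 tested enhancers rose (15.6%) and 270 fell (9.67%), so that 705 (25.3%) changed at an adjusted p under 0.05 by edgeR's quasi-likelihood test with Benjamini-Hochberg adjustment. The 2 counts cannot be weighed against each other directly. On simulated data, 66% of 4-fold rises were found but 10% of 4-fold falls. There each change started from the mean level of an enhancer over all 20 libraries, so that falls left fewer tags than rises. This gap depends on that starting level and is not the share of real falls missed, which start from the level of unstimulated cells. Enough tags for a test was judged over all 20 libraries. Of the tested enhancers, 372 had no tag in unstimulated cells and 101 had none with both stimuli at 15 h. The median size of the fitted log2 change was 4.08 among the called rises (interquartile range 2.96 to 5.18) and 3.09 among the called falls (2.24 to 4.32). With enhancers that had no tag in 1 group set to the level of 3 tags in that group, these medians were 2.46 for rises and 2.56 for falls, so that their order depended on this choice. At the enhancers that rose, the median level was 0.611 RPM with both stimuli, against 0.0362 RPM in unstimulated cells. At those that fell it was 0.0759 RPM with both stimuli, against 0.734 RPM in unstimulated cells. Called enhancers were therefore mostly regions near silence in one state and at a low level in the other. Among the rises, 94 had 1 RPM or more with both stimuli and 23 had 2 RPM or more; among the falls, 72 had 1 RPM or more and 15 had 2 RPM or more in unstimulated cells.

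Over all tested enhancers the median log2 change was 0.31, and it was 0.40 when libraries were scaled to their whole totals. That scaling kept the call of all 435 rises and of 229 of the 270 falls. The libraries of the 2 groups did not overlap at 432 of the 435 rises and at 267 of the 270 falls; over all tested enhancers they did not overlap, with the stimulated ones higher, at 37.2%, and with them lower, at 23.0%. The counts changed when single libraries were left out. They were 332 rises and 151 falls without replicate 1 of both stimuli, 303 and 100 without its replicate 2, 186 and 150 without unstimulated replicate 1, and 184 and 177 without unstimulated replicate 2. With each of these 4 libraries left out in turn, 119 of the 435 rises and 67 of the 270 falls kept their call every time, and DESeq2 called 155 rises and 78 falls.

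**Figure D1:**
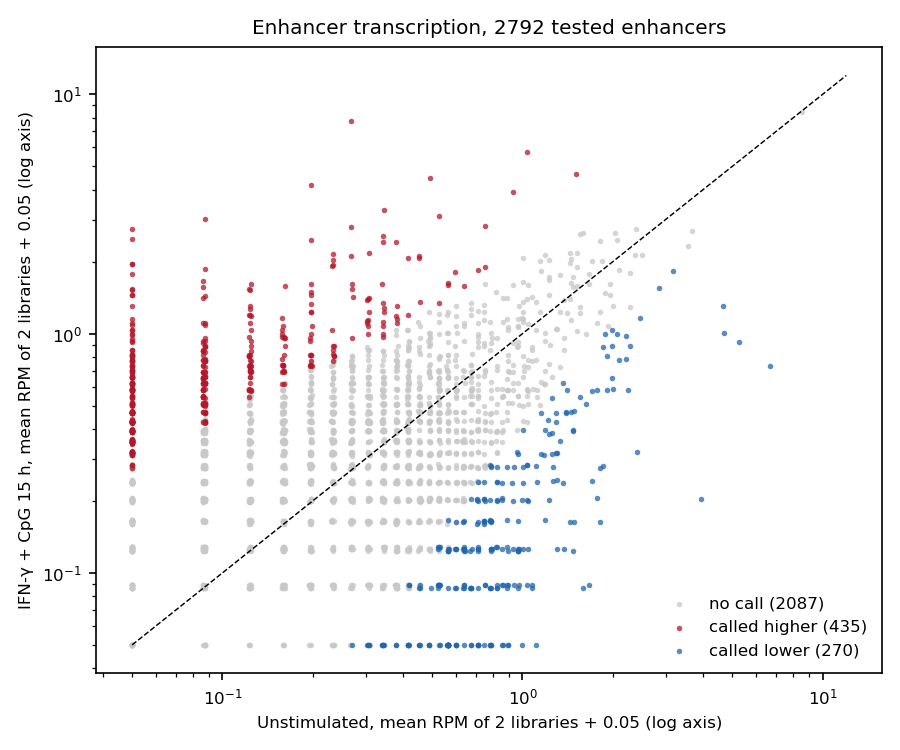
Mean level of each tested enhancer over 2 libraries, in RPM plus 0.05 on log axes, with both stimuli at 15 h on the vertical axis and in unstimulated cells on the horizontal axis; colours mark the 435 called higher, the 270 called lower and the 2087 with no call, and the dashed line marks equal levels. Many called rises stand in the columns at the left edge, where unstimulated cells had no tag or 1 tag, and the called falls lie below the line, along the bottom and the right.

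Ranked by fitted log2 change, the largest rises were at regions with no tag at all in unstimulated cells. This ranking favours such regions, because the fitted change is large where 1 group has no tag. By the ratio of levels, chr19:11349540-11350041, which had unstimulated tags, rose 35.1-fold, above the minimum given below for the top region. Among the 435 rises, 200 had none, out of 372 tested enhancers without an unstimulated tag. For these a fold change is a minimum, obtained by setting the unstimulated level to that of 3 tags in both libraries together (0.11 RPM), which covers counting error only. At the top was chr3:121164067-121164375, with 41 and 30 tags with both stimuli, against 0 and 0 in unstimulated cells. Its level was 2.68 ± 0.48 RPM with both stimuli (SD, n = 2), at least 24.5-fold higher, and its fitted log2 change was 7.95 ± 0.91 (SE; edgeR adjusted p = 1.03e-15). It had 35 and 30 tags with IFN-γ alone at 15 h and 1 and 0 with CpG alone, so that its level with both stimuli lay beside that with IFN-γ. It was already at 17 and 34 tags after 3 h and 20 and 24 after 9 h of both stimuli.

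The second, chr16:17285443-17285962, had 28 and 36 tags with both stimuli, against 0 and 0 in unstimulated cells (at least 22.0-fold higher, log2 7.79 ± 0.96, edgeR adjusted p = 1.94e-13). It had 6 and 2 tags with IFN-γ alone and none with CpG alone. Here the combination exceeded both single stimuli, by 2.56 ± 0.51 over IFN-γ (log2 ± SE, edgeR adjusted p = 8.22e-05) and by 7.79 ± 1.00 over CpG (8.47e-12). It reached this level between 3 h (6 and 10 tags) and 9 h (44 and 32 tags).

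The third, chr19:10822778-10823211, showed the other pattern, with 25 and 25 tags with both stimuli, against 0 and 0 in unstimulated cells (log2 7.44 ± 1.01, edgeR adjusted p = 5.64e-11). It had 16 and 23 tags with CpG alone and 1 and 1 with IFN-γ alone, and the combination exceeded IFN-γ by 4.10 ± 0.71 (edgeR adjusted p = 3.5e-06). The difference from CpG alone, 0.15 ± 0.38, was within its error. At chr2:77937049-77937442 the same held: 23 and 14 tags with both stimuli and 12 and 12 with CpG alone, against none with IFN-γ alone and none in unstimulated cells. Its log2 change over unstimulated cells was 7.02 (edgeR adjusted p = 7.86e-08).

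At chr1:170845432-170845645 the level followed IFN-γ, with 18 and 21 tags with both stimuli and 12 and 19 with IFN-γ alone, against 0 and 1 with CpG alone and none in unstimulated cells. The combination exceeded CpG by 4.76 ± 0.84 (edgeR adjusted p = 3.03e-06) and differed from IFN-γ by -0.07 ± 0.42, within the error. This enhancer was high early, at 21 and 29 tags after 3 h of both stimuli and 8 and 6 after 9 h.

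Regions with more tags in the combination than in either single stimulus at 15 h included chr2:117129364-117129727, with 24 and 26 tags with both stimuli, 2 and 1 with IFN-γ alone, 7 and 8 with CpG alone, and none in unstimulated cells. The excess over IFN-γ was 3.56 ± 0.66 (edgeR adjusted p = 1.18e-05); the excess over CpG, 1.51 ± 0.46 (0.0312), lost its call without any single library of those 2 groups (0.0767 to 0.238). After 9 h, chr2:117129364-117129727 had 16 and 13 tags with both stimuli and 12 and 13 with CpG alone. Another region with more tags at 15 h was chr8:46885923-46886191, with 18 and 15 tags with both stimuli, none with IFN-γ alone, 2 and 1 with CpG alone and none in unstimulated cells. Its excess over IFN-γ kept its call throughout, and its excess over CpG, 3.16 ± 0.80 (edgeR adjusted p = 0.00551), lost it without CpG replicate 1 (0.071), CpG replicate 2 (0.109) or replicate 1 of both stimuli (0.0755). The other 3 of the 10 largest rises lay at chr5:65042388-65042734, chr4:132459018-132459199 and chr4:62200596-62201074. These had 37 to 45 tags over the 2 libraries with both stimuli, none in unstimulated cells, and log2 changes of 7.28, 7.09 and 7.01 (edgeR adjusted p of 4.71e-09, 1.16e-08 and 9.26e-08).

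The rises with the highest level under both stimuli were a different set, since none of them was silent in unstimulated cells. The highest was chr19:11349540-11350041, with 106 and 98 tags with both stimuli, against 5 and 1 in unstimulated cells. That is 7.73 ± 0.13 RPM with both stimuli and 0.218 ± 0.20 RPM in unstimulated cells (SD, n = 2 each), a 35.1-fold rise (log2 4.99 ± 0.42, edgeR adjusted p = 1.02e-28). With so few unstimulated tags the log2 change was 6.43 without unstimulated replicate 1 and 4.33 without unstimulated replicate 2. It stood at 3 and 3 tags with IFN-γ alone, the level of unstimulated cells, and at 63 and 61 with CpG alone. Over time with both stimuli it went through 8 and 18 tags at 3 h and 66 and 64 at 9 h.

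Next in level was chr7:75319181-75319526, with 98 and 54 tags with both stimuli, against 18 and 9 in unstimulated cells (5.72 ± 2.13 and 0.986 ± 0.45 RPM). The groups did not overlap, which the rule of naming required, and the rise was 5.82-fold (log2 2.47 ± 0.33, edgeR adjusted p = 3.08e-11). With single libraries left out its log2 change was 1.94 to 3.07, the highest without replicate 2 of both stimuli. At 15 h it too followed CpG, with 55 and 44 tags for CpG alone and 13 and 7 for IFN-γ alone. Earlier, the combination lay below CpG alone in every library. After 3 h there were 12 and 18 tags with both stimuli, against 28 and 34 with CpG alone. After 9 h there were 21 and 17 with both stimuli, against 40 and 39 with CpG alone. At chr10:7710717-7711320 the order was the reverse: 46 and 70 tags with both stimuli and 27 and 31 with IFN-γ alone, against 8 and 9 with CpG alone and 6 and 6 in unstimulated cells. It rose 9.99-fold over unstimulated cells (log2 3.19 ± 0.40, edgeR adjusted p = 8.49e-13), and the combination exceeded CpG by 2.54 ± 0.38 (1.6e-08).

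At chr5:121537641-121537963 both single stimuli gave less than the combination at 15 h. It had 62 and 47 tags with both stimuli, 15 and 10 with IFN-γ alone and 7 and 5 with CpG alone, against 1 and 3 in unstimulated cells. The combination exceeded unstimulated cells by 4.64 ± 0.50, a 28.2-fold difference, IFN-γ alone by 1.72 ± 0.35 and CpG alone by 2.96 ± 0.41 (log2 ± SE; edgeR adjusted p of 1.7e-17, 1.47e-04 and 3.62e-10). With single libraries left out the log2 change over unstimulated cells was 4.06 to 5.60, the highest without unstimulated replicate 2. The region was already at this level at 3 h of both stimuli, with 50 and 53 tags, and stayed at 57 and 47 at 9 h. With IFN-γ alone it had 49 and 23 tags at 3 h and 25 and 22 at 9 h, more than at 15 h.

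The remaining rises named for their level were more modest. At chr11:76370382-76370940 there were 58 and 44 tags with both stimuli, against 11 and 13 in unstimulated cells (log2 2.04 ± 0.36, edgeR adjusted p = 7.79e-07). At chr2:30818921-30819384 there were 54 and 67 tags with both stimuli, against 28 and 12 in unstimulated cells (log2 1.55 ± 0.31, edgeR adjusted p = 3.13e-05). With single libraries left out its log2 change was 1.115 to 2.248, the highest without unstimulated replicate 1. This last region was transcribed in every group shown, with 31 to 63 tags under the other stimulations at 15 h.

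**Figure D2:**
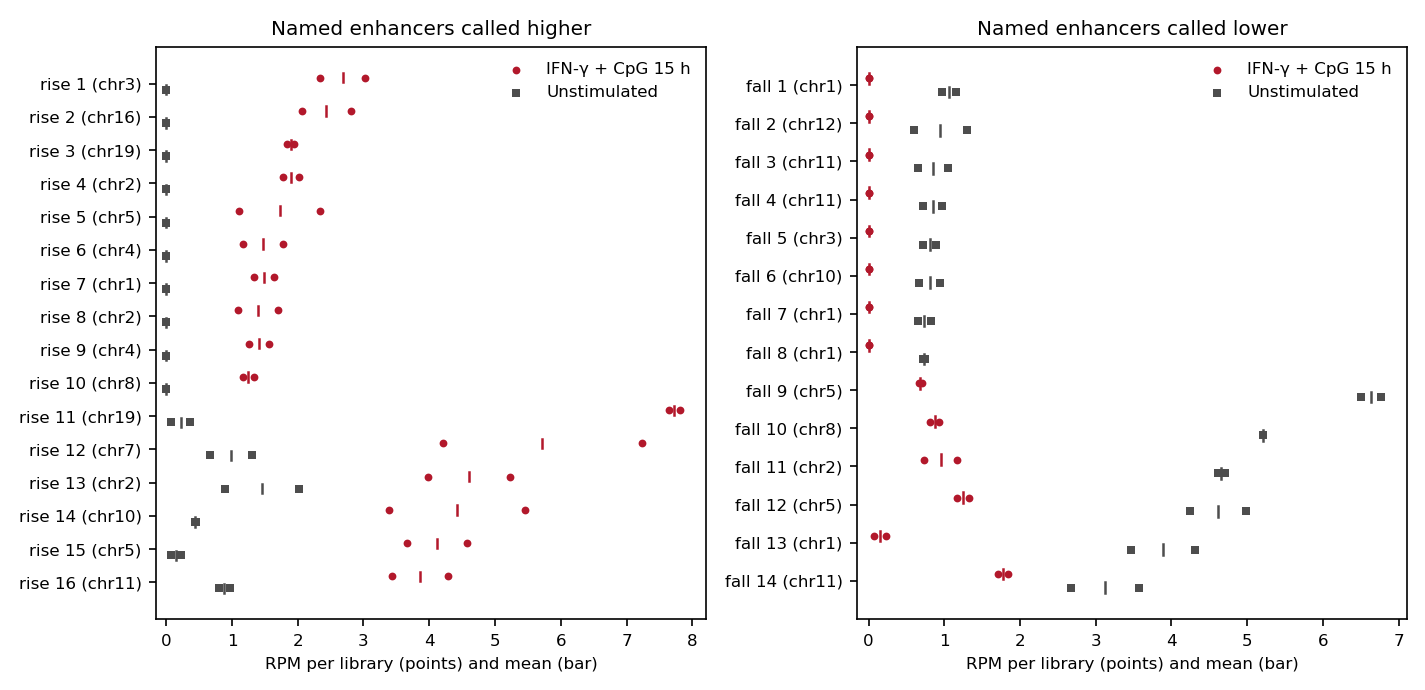
Level in RPM (linear axis) of the 16 named rises and the 14 named falls in each library with both stimuli at 15 h (red circles) and in unstimulated cells (grey squares), with the mean as a short bar. Rises 1 to 10 and falls 1 to 8 are the largest fitted log2 changes and the others those with the highest level, each with its chromosome. The circles and squares do not overlap in any row because the rule of naming required it. The largest fitted log2 changes have 1 group at 0.

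The falls were the mirror image in that the largest by fitted log2 change were at regions without a tag under both stimuli. The ranking favours such regions here too. By the ratio of levels, chr1:128518463-128519014, which kept tags under both stimuli, fell 25.65-fold, beyond the minimum of the top region. Of the 270 falls, 60 had none, out of 101 tested enhancers without a tag with both stimuli at 15 h. The largest, chr1:191012987-191013192, had 0 and 0 tags with both stimuli, against 16 and 13 in unstimulated cells, at least 9.36-fold lower (log2 -6.70 ± 1.27, edgeR adjusted p = 7.54e-06). It was low in every stimulated group shown, with 3 and 2 tags for IFN-γ alone, 5 and 3 for CpG alone, 1 and 2 after 3 h of both stimuli and 3 and 2 after 9 h. The second, chr12:85470619-85471124, had 0 and 0 tags with both stimuli, against 18 and 8 in unstimulated cells (log2 -6.54, at least 8.39-fold lower, with an edgeR adjusted p of 3.7e-05; log2 -5.88 without unstimulated replicate 1). Here 1 and 0 tags were left at 3 h of both stimuli and none at 9 h.

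The third, chr11:119747526-119747868, had 0 and 0 tags with both stimuli, against 9 and 14 in unstimulated cells (log2 -6.37, at least 7.42-fold lower, with an edgeR adjusted p of 2.91e-05). It kept 10 and 6 tags with CpG alone and had 2 and 1 with IFN-γ alone. Its log2 difference from CpG alone was -6.02 ± 1.37 (edgeR adjusted p = 0.0012), a call lost without CpG replicate 1 (0.052) or replicate 2 of both stimuli (0.0605). The other 5 of the largest falls lay at chr11:114781897-114782287, chr3:103697328-103697760, chr10:98580063-98580365, chr1:128326811-128327315 and chr1:190916950-190917357. These had 20 to 23 tags over the 2 unstimulated libraries, none with both stimuli at 15 h, and 0 to 4 in any library of either single stimulus at 15 h.

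The falls with the highest level in unstimulated cells kept a residue under both stimuli. The highest was chr5:34684166-34684741, with 9 and 9 tags with both stimuli, against 90 and 91 in unstimulated cells. That is 0.683 ± 0.027 RPM with both stimuli and 6.64 ± 0.19 RPM in unstimulated cells (SD, n = 2 each), a 9.73-fold fall (log2 -3.35 ± 0.35, edgeR adjusted p = 1.09e-18). Single stimuli took it part of the way, to 32 and 40 tags for IFN-γ and 31 and 21 for CpG. The combination was lower than both, with a log2 difference of -2.38 ± 0.39 from IFN-γ alone (edgeR adjusted p = 7.74e-07) and of -1.72 ± 0.41 from CpG alone (0.00298), the CpG call being lost without CpG replicate 1 (0.139) or replicate 2 of both stimuli (0.0914). It was at 9 and 12 tags after 3 h of both stimuli and 11 and 9 after 9 h, so that the level of 15 h was reached by 3 h.

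At chr8:84928192-84928495 there were 11 and 12 tags with both stimuli, against 72 and 70 in unstimulated cells (log2 -2.65 ± 0.34, edgeR adjusted p = 3.15e-12). IFN-γ alone left 38 and 38 tags and CpG alone 20 and 25. At chr2:180085365-180085953 there were 10 and 15 tags with both stimuli, against 65 and 62 in unstimulated cells (log2 -2.38, edgeR adjusted p = 6.74e-10). Here CpG alone left 47 and 51 tags and IFN-γ alone 14 and 22, and the combination was lower than CpG, at a log2 difference of -2.17 ± 0.35 (edgeR adjusted p = 3.27e-07).

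The level at chr1:128518463-128519014 fell by 4.68 ± 0.52 on the log2 scale, with 1 and 3 tags with both stimuli, against 48 and 58 in unstimulated cells (edgeR adjusted p = 1.59e-16). With single libraries left out its log2 change was -5.342 to -4.135, the largest fall being without replicate 2 of both stimuli. It had 11 and 8 tags with IFN-γ alone and 16 and 4 with CpG alone. At chr5:114083055-114083713 there were 18 and 15 tags with both stimuli, against 69 and 57 in unstimulated cells (log2 -1.96, edgeR adjusted p = 1.53e-07). The last of the 14 named falls, chr11:114894820-114895102, had 25 and 22 tags with both stimuli, against 37 and 48 in unstimulated cells, a 1.75-fold difference (log2 -0.89 ± 0.33, edgeR adjusted p = 0.0298). Of the 30 named enhancers it was the only one whose call against unstimulated cells did not hold throughout: its adjusted p was 0.0682 and 0.358 without replicate 1 or 2 of both stimuli and 0.283 without unstimulated replicate 2.

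Set against the single stimuli at the same time, the combination was higher than IFN-γ alone at 144 enhancers (5.16%) and lower at 112 (4.01%). It was higher than CpG alone at 95 (3.40%) and lower at 46 (1.65%), by the same edgeR fit. With whole-library scaling the splits were 235 higher and 45 lower against IFN-γ, and 119 higher and 26 lower against CpG. Against CpG alone the total of 141 calls (5.05%) was 33 to 72 with any library of the 2 groups left out, and against IFN-γ alone the total of 256 (9.17%) was 74 to 105. These comparisons share the libraries of the combination with the comparison against unstimulated cells, so their values are given side by side only.

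Of the 30 named enhancers, 14 differed from IFN-γ alone, and 10 of these kept the call under every alternative and left-out library. Another 14 differed from CpG alone, of which 6 kept it. Both differences held throughout at chr16:17285443-17285962 and chr5:121537641-121537963 (named above), where the combination was higher than either stimulus at 15 h. Among the called rises, 4 had no tag in unstimulated cells, with IFN-γ alone or with CpG alone at 15 h. The one with the most tags, singled out after its values were seen, was chr3:15575089-15575313, with 13 and 13 tags with both stimuli at 15 h. It had no tag after 3 h of both stimuli and 2 and 11 after 9 h. Its log2 change over unstimulated cells was 6.51 (edgeR adjusted p = 3.26e-04); the adjusted p was 0.00297 against IFN-γ and 0.00267 against CpG, and each of those calls was lost without either library of the single stimulus (0.0576 to 0.0795).

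The summed level of the called sets was followed in the other groups. The 435 enhancers that rose summed to 356 ± 49.6 RPM with both stimuli at 15 h, against 33.8 ± 2.37 RPM in unstimulated cells (SD, n = 2 each), which is how they were chosen. In groups outside that comparison, whose libraries entered the fit through its filter, scaling and spread, they summed to 254 ± 53.4 RPM after 3 h and 234 ± 8.09 RPM after 9 h of both stimuli. With a single stimulus for 15 h they summed to 135 ± 2.92 RPM for IFN-γ and 146 ± 6.79 RPM for CpG. Both single stimuli thus lay between the ends in every library; since the libraries at the ends chose the sets, this is a description without a test. The 270 enhancers that fell summed to 46.2 ± 4.92 RPM with both stimuli at 15 h, against 256 ± 3.2 RPM in unstimulated cells. They stood at 96.1 ± 16.3 RPM after 3 h and 46.4 ± 6.75 RPM after 9 h of both stimuli, and at 92.7 ± 3.13 RPM with IFN-γ alone and 103 ± 2.72 RPM with CpG alone for 15 h. These sums are not scaled to the level of all enhancers, which also differed between groups. That level was 1861 RPM with both stimuli at 15 h and 1552 RPM in unstimulated cells. It was 1905 RPM after 3 h and 1359 RPM after 9 h of both stimuli. With IFN-γ alone for 15 h it was 1290 RPM, and with CpG alone 1513 RPM.

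The 200 rises without an unstimulated tag reached 106 ± 12.7 RPM with both stimuli at 15 h, against 41.8 RPM with IFN-γ alone and 34.9 RPM with CpG alone. After 3 and 9 h of both stimuli they were at 88.2 ± 19.7 and 76.2 ± 1.09 RPM. The 60 falls without a tag under both stimuli at 15 h had 30.9 ± 1.76 RPM in unstimulated cells, and 9.35 RPM after 3 h and 4.29 RPM after 9 h of both stimuli. With a single stimulus for 15 h they were at 9.44 RPM for IFN-γ and 10.9 RPM for CpG. Both sets were chosen by their tags in the compared libraries, which widens their distance from the other groups, so these sums too are a description without a test. The 8430 enhancers too sparse to test, set apart by the count filter and not by a call, summed to 722 ± 137 RPM with both stimuli at 15 h. In unstimulated cells they summed to 591 ± 24.5 RPM. By library the sums were 625 and 819 RPM with both stimuli, against 608 and 573 RPM in unstimulated cells. Most of the difference thus lay in replicate 2 of both stimuli.

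Between 15 h and 9 h of both stimuli, a single enhancer was called (0.0358% of 2792), chr7:75319181-75319526, with 98 and 54 tags at 15 h, against 21 and 17 at 9 h (log2 1.62 ± 0.31, edgeR adjusted p = 6.7e-04). That call was lost without replicate 1 of both stimuli at 15 h (0.722) or replicate 2 at 9 h (0.21), and DESeq2 called no enhancer. An unadjusted p under 0.05 was found at 196 enhancers in this comparison, against 1028 in that with unstimulated cells. A p that misses the threshold does not show that 9 h and 15 h were alike.

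**Figure D3:**
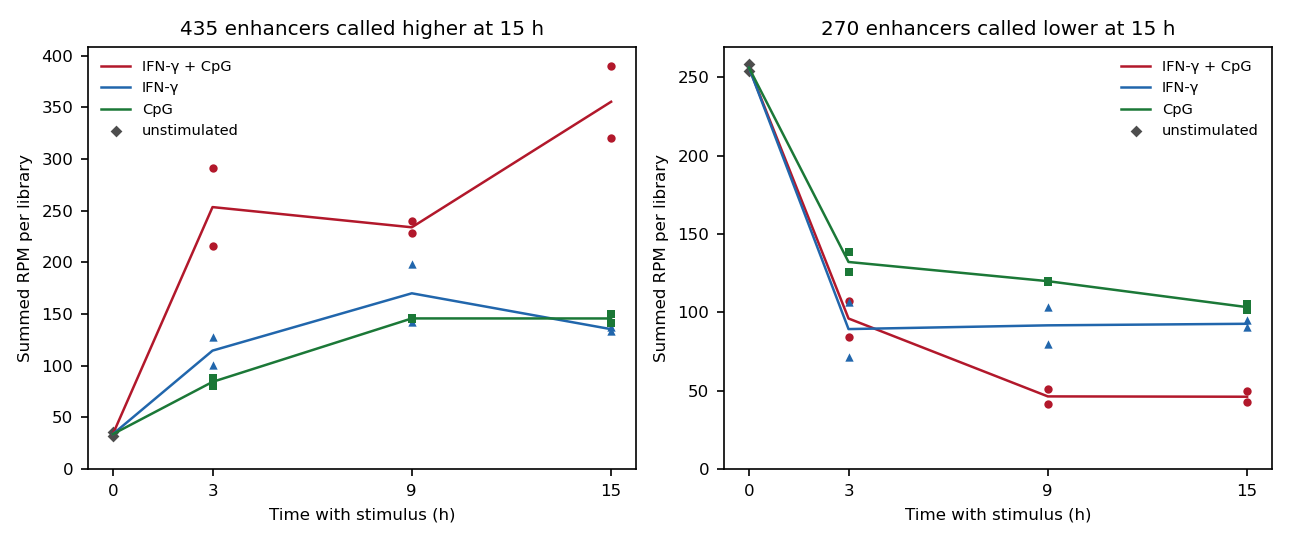
Summed level in RPM of the 435 enhancers called higher (left) and the 270 called lower (right) against time with stimulus in hours, for both stimuli, IFN-γ alone, CpG alone and unstimulated cells at 0 h; each point is 1 library and lines join the means of 2. With both stimuli the called rises summed to 254 RPM at 3 h and 356 RPM at 15 h, and the called falls were as low at 9 h as at 15 h, while the single stimuli at 15 h lie between the ends.

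Across chromosomes the response was spread widely, with called rises on 21 sequences and called falls on 20. Among chromosomes with more than a few tested enhancers, the share that rose was between 11.8% on chromosome 15 and 22.8% on chromosome 17 (34 of 149), and the share that fell between 5.71% on chromosome X and 14.4% on chromosome 13. Chromosome 16 had 23 rises and 7 falls among 117 tested enhancers and a median log2 change of 1.07. Region length did not separate the sets, with a median of 370 bases for rises, 384.5 bases for falls and 371 for enhancers without a call.

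Enhancers were then joined into loci where neighbours lay within 50 kb, which gave 3866 loci, 1843 of them of a single enhancer and the largest of 30. Summing the tags of a locus left 1896 loci for the test, of which 336 rose (17.7%) and 301 fell (15.9%), 33.6% in all. With whole-library scaling the split was 374 rises and 201 falls, and the median log2 change over all loci was 0.15 with the scaling used and 0.39 with whole-library totals. Summing added loci in which no enhancer was called by itself: 112 of the rising and 141 of the falling ones. The count of loci was less sensitive to single libraries than that of enhancers, at 483 and 438 without replicate 1 or 2 of both stimuli and 452 and 417 without unstimulated replicate 1 or 2.

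The named locus with the lowest adjusted p was chr19:11306875-11581269, which spans 274.4 kb and holds 19 enhancers, of which 6 were tested and 5 rose. It had 165 and 159 tags with both stimuli, against 11 and 5 in unstimulated cells (log2 4.12 ± 0.28, edgeR adjusted p = 4.31e-47). With single libraries left out its log2 change was 3.71 to 4.73, the highest without unstimulated replicate 1. Of its 5 rises, 3 kept their call without replicate 2 of both stimuli or unstimulated replicate 2, and 2 without unstimulated replicate 1. It had 37 and 43 tags with IFN-γ alone and 81 and 81 with CpG alone, and its members differed in this. At chr19:11349540-11350041, described above, the tags followed CpG. At chr19:11517556-11517878 they followed IFN-γ, with 9 and 10 tags with both stimuli and 11 and 10 with IFN-γ alone, against 2 and 0 with CpG alone and none in unstimulated cells.

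The locus chr4:132459018-132543954 spans 84.9 kb and holds 12 enhancers, of which 7 were tested and 6 rose. It had 89 and 80 tags with both stimuli, against 4 and 5 in unstimulated cells (log2 3.99 ± 0.35, edgeR adjusted p = 6.52e-27). IFN-γ alone gave 58 and 57 tags and CpG alone 15 and 14. Within it, chr4:132521270-132521724 had 22 and 18 tags with both stimuli, against 1 and 0 in unstimulated cells, a ratio of 41.3 with an exact 95% interval of 7.00 to 1673.

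The locus chr4:62183758-62206227 is the most compact of the named ones, with 9 enhancers in 22.5 kb, of which 6 were tested and 5 rose. It had 72 and 99 tags with both stimuli, against 9 and 8 in unstimulated cells (log2 3.10 ± 0.31, edgeR adjusted p = 9.51e-21). It had 12 and 21 tags with IFN-γ alone and 40 and 53 with CpG alone, so that CpG gave more than IFN-γ in every library. The locus chr17:18047677-18138296 followed CpG as well, with 67 and 68 tags with both stimuli and 38 and 38 with CpG alone, against 3 and 2 with IFN-γ alone and 12 and 6 in unstimulated cells. Its log2 change over unstimulated cells was 2.69 ± 0.33 (edgeR adjusted p = 3.16e-14), and 5 of its 9 tested enhancers rose. Of these 5, 3 kept their call without replicate 2 of both stimuli, 2 without unstimulated replicate 1 and 1 without unstimulated replicate 2.

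Of the named rising loci the one with the most enhancers lay at chr6:31054229-31198882, with 23 enhancers in 144.7 kb, of which 15 were tested, 6 rose and 1 fell. It had 138 and 177 tags with both stimuli, against 54 and 73 in unstimulated cells (12.0 ± 2.56 and 4.67 ± 1.08 RPM; log2 1.10 ± 0.18, edgeR adjusted p = 2.27e-08). Both single stimuli lay nearer to unstimulated cells, at 84 and 80 tags for IFN-γ and 68 and 101 for CpG. Inside it, chr6:31102981-31103342 had 36 and 49 tags with both stimuli, against 3 and 5 in unstimulated cells (log2 3.32 ± 0.46, edgeR adjusted p = 1.55e-10), and it had 11 and 18 tags with IFN-γ alone and 7 and 6 with CpG alone. At chr8:47231252-47394979, 4 of 9 tested enhancers rose, with 59 and 98 tags for the whole locus with both stimuli, against 26 and 17 in unstimulated cells (edgeR adjusted p = 3.57e-09). Of the 4, 1 kept its call without replicate 2 of both stimuli or without unstimulated replicate 1, and 2 without unstimulated replicate 2.

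Among the loci that fell, chr8:84919232-84964446 held the most called falls: 7 of its 8 tested enhancers fell, within 45.2 kb, of which 3 kept their call without replicate 2 of both stimuli and 4 without unstimulated replicate 1. It had 38 and 44 tags with both stimuli, against 193 and 164 in unstimulated cells (3.12 ± 0.44 and 13.1 ± 1.24 RPM; log2 -2.32 ± 0.19, edgeR adjusted p = 9.99e-31). IFN-γ alone left 87 and 95 tags and CpG alone 53 and 53. It contains chr8:84928192-84928495, named above, and chr8:84924366-84924721, which had 0 and 0 tags with both stimuli, against 10 and 9 in unstimulated cells (edgeR adjusted p = 1.52e-04).

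At chr2:13403741-13444003, 5 of 5 tested enhancers were called lower, of which 3 kept their call without replicate 1 of both stimuli or unstimulated replicate 2, and 2 without replicate 2 of both stimuli or unstimulated replicate 1. The locus had 21 and 22 tags with both stimuli, against 95 and 76 in unstimulated cells (log2 -2.18 ± 0.25, edgeR adjusted p = 6.81e-16). After 3 h of both stimuli it was still at 74 and 89 tags, which overlapped unstimulated cells, and after 9 h at 22 and 11. It was at 16 and 21 tags with IFN-γ alone for 15 h and at 17 and 44 with CpG alone. Within it, chr2:13409909-13410211 had 0 and 1 tags with both stimuli, against 17 and 27 in unstimulated cells, lower by a ratio of 42.6 with an exact 95% interval of 7.26 to 1720. The other 2 named loci that fell were chr17:26716256-26825846 (log2 -1.17 ± 0.18, edgeR adjusted p = 5.89e-09) and chr12:85393221-85649768 (log2 -1.03, edgeR adjusted p = 6.06e-07), each with 4 called enhancers. On chromosome 17, none of the 4 kept its call without replicate 1 of both stimuli, 1 without replicate 2, and 2 without either unstimulated library. On chromosome 12, 1 kept it without replicate 2 of both stimuli and 2 without either unstimulated library. The summed tags of the 10 named loci, unlike these single enhancers, kept their calls under every alternative and with any of the 4 libraries left out.

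**Figure D4:**
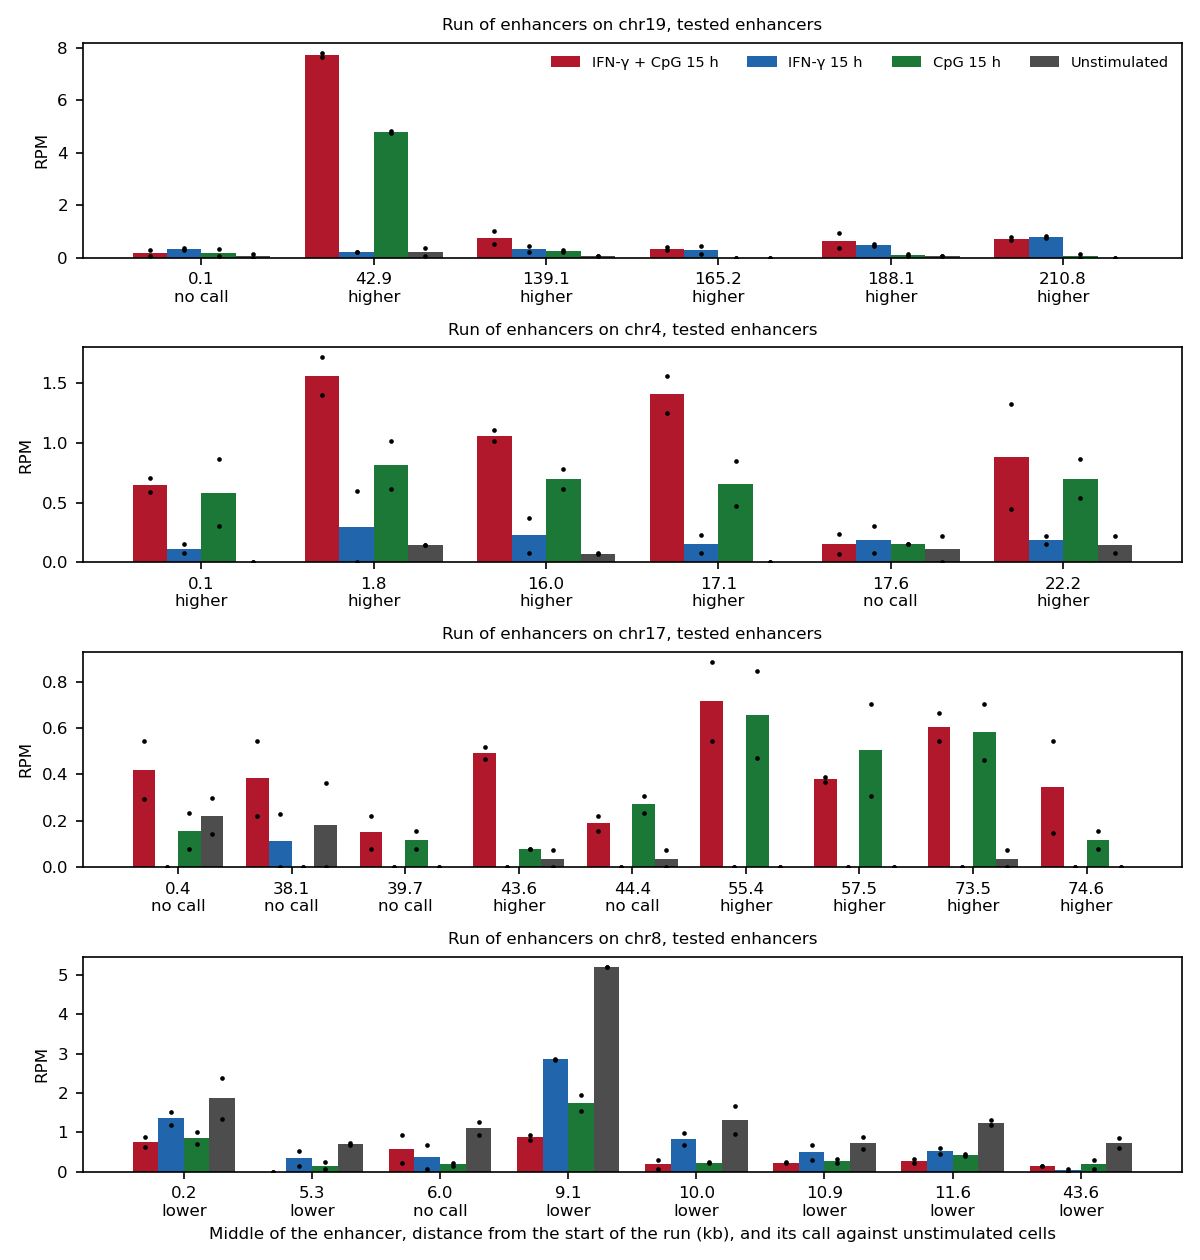
Level in RPM of the tested enhancers of 4 named loci, on chromosomes 19, 4 (chr4:62183758-62206227), 17 and 8 (chr8:84919232-84964446), in order along the locus with the distance from its start in kb and the call; bars from 0 are means of 2 libraries and dots the libraries, with both stimuli, IFN-γ alone and CpG alone at 15 h left of unstimulated cells. On chromosome 19 a single enhancer carries most of the level and follows CpG, while the next ones are low and have less or nothing with CpG; on chromosome 8 the unstimulated bar is the highest at every enhancer.

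Loci mostly moved one way. Of 127 loci with 2 or more called enhancers, 67 had rises alone, 38 had falls alone and 22 had both. Rises made up 61.7% of all called enhancers, so that a part of this agreement would also be found among unrelated calls. A locus with both was found on chromosome 12, where chr12:25258829-25259188 had 27 and 23 tags with both stimuli, against 2 and 3 in unstimulated cells (log2 3.22 ± 0.58, edgeR adjusted p = 1.99e-06). In the same locus, chr12:25238686-25239401 had 2 and 7 tags with both stimuli, against 23 and 16 in unstimulated cells (log2 -2.12 ± 0.55, edgeR adjusted p = 0.00171). The fall lost its call without replicate 1 of both stimuli (0.0801) or unstimulated replicate 1 (0.05).

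The likeness of neighbouring enhancers fell off with distance. Over adjacent tested enhancers, the log2 changes correlated at r = 0.58 (Spearman's rho 0.61) for the 604 pairs under 5 kb apart, at 0.45 for 368 pairs at 5 to 20 kb, at 0.37 for 236 pairs at 20 to 50 kb, at 0.20 for 427 pairs at 50 to 200 kb and at 0.04 for 1135 pairs farther apart. Where both members of a pair were called, they moved in the same direction in 78 of 79 pairs under 5 kb (98.7%), 41 of 44 at 5 to 20 kb (93.2%), 17 of 20 at 20 to 50 kb (85.0%), 12 of 18 at 50 to 200 kb (66.7%) and 33 of 53 beyond (62.3%). These are descriptions across enhancers of the same 4 libraries, which are not independent replicates, and no pair overlapped in position.

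**Figure D5:**
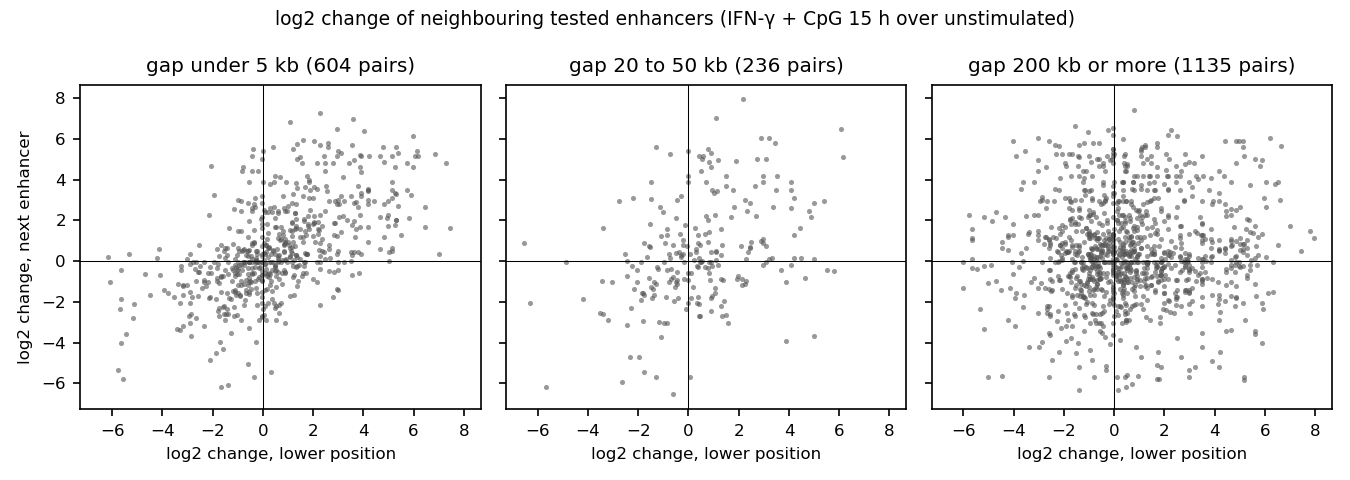
Log2 change (both stimuli at 15 h over unstimulated) of each tested enhancer on the horizontal axis and of the next tested enhancer along the chromosome on the vertical axis, in 3 panels by the gap between them. Pairs under 5 kb apart gather in the lower left and upper right (r = 0.58), and those 200 kb or more apart show no such order (r = 0.04).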

How the data were processed

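In these macrophages, capped 5′ ends were counted by nAnT-iCAGE, from total RNA extracted with TRIzol per the labels' protocols. Per the submitters' processing notes, the build was mm39 and the tools were HISAT2 2.1.0, BWA 0.7.10, Trimmomatic 0.38 and FastQC 0.11.5; which caller defined the enhancers is not given in the sources used here. Raw tag counts per enhancer and library were deposited by the authors, together with RPM values relative to all tags of the library. The test was edgeR's quasi-likelihood F-test (version 4.0.16 in R 4.3.3, two-sided) on the counts, with a coefficient per group over all 20 libraries (10 residual degrees of freedom) and TMM factors. Tested enhancers passed filterByExpr (minimum count 5, minimum total 15). Calls were made at a Benjamini-Hochberg adjusted p under 0.05 over all tested enhancers. The SE of a log2 change is its size over the square root of F.

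Enhancers were named where the 2 stimulated libraries did not overlap the unstimulated ones, with a mean of at least 5 tags in the higher group. They were the 10 largest rises and 8 largest falls by fitted log2 change, then the 6 rises and 6 falls with the highest level. Named loci were the 6 rising and 4 falling ones with the most called enhancers; loci were joined at gaps of up to 50 kb. Enhancers named inside a locus for its make-up were picked after their values were seen. Members, lists and rules were chosen with earlier results of these data known. The gene, motif and sequence steps that were foreseen were not run, since the annotation and genome at hand are of GRCm38. Intervals are exact (95%) and, like floors, cover counting error only. Data were simulated for both stimuli at 15 h against unstimulated cells (2792 enhancers), with each change starting from the mean level over all 20 libraries. Rises of 8-fold were found in 98% of cases, those of 4-fold in 66% and those of 2-fold in 8%, falls of 4-fold in 10%, and 6.19% of the calls were false. Alternatives were whole-library totals, RLE factors, DESeq2 1.42.0, no filter, a stricter filter, limma 3.58.1 on log2(RPM + pseudocount), the replicate block, a fit of the compared groups by themselves, and each library left out.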

Additional observations from a re-analysis of the deposited data

Results flagged for a closer look

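At chr7:75319181-75319526 the level with both stimuli differed between times, with 98 and 54 tags at 15 h, against 21 and 17 at 9 h (log2 1.62, edgeR adjusted p = 6.7e-04). It was picked out because the test of that difference passed its threshold; the call was lost without replicate 1 at 15 h (0.722) or replicate 2 at 9 h (0.21), and with DESeq2 (0.45).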

How the results depend on the processing

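Against unstimulated cells, DESeq2 called 233 enhancers (155 higher, 78 lower), a test with no filter called 266 higher, and a stricter filter called 316 of the 758 it left (180 higher, 136 lower). With any of the 4 libraries left out, 336 to 483 were called (184 to 332 higher, 100 to 177 lower); a lone library was then assumed to vary like the other groups. Against IFN-γ at 15 h, DESeq2 called 55, no filter 103, and limma 479, 421 and 419 with pseudocounts of 0.5, 0.1 and 2; left-out libraries gave 74 to 105. Against CpG at 15 h, DESeq2 called 36, no filter 65, and limma 247, 227 and 236; left-out libraries gave 33 to 72. Against 9 h of both stimuli, whole-library totals called 3, DESeq2 0, and limma 22, 4 and 59; left-out libraries gave 0 to 2. For loci, DESeq2 called 330 (182 higher, 148 lower) and left-out libraries gave 417 to 483. Joining at a narrower gap than 50 kb gave 778 called of 2391 loci and at 100 kb 576 of 1620. Same-numbered replicates did not deviate together (correlation -0.017, and above 0.1 in 0 of 45 pairs of groups). At a median of 3 tags per library, counting error weighs on these deviations and could hide a shared one. Whether the numbers pair the samples is therefore not settled. With the replicate block 676 were called (419 higher, 257 lower). For named enhancers, 402 of 410 alternative values kept direction and call, and 8 lost the call, all at chr11:114894820-114895102; for named loci all 110 kept both. On the log2(RPM + pseudocount) scale changes are smaller by construction: at chr19:11349540-11350041 limma gave 3.55 with a pseudocount of 0.5 and 2.14 with 2. The cause of the other differences was not tested. A tested enhancer had a median of 3 tags per library; on data simulated at this depth, with 2 libraries a side, most 2-fold rises were missed.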

Other observations

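Both regions given here were picked after their values were seen. At chr1:154930480-154930887 the combination lay below unstimulated cells and IFN-γ alone above them, with 0 and 0 tags with both stimuli at 15 h and 15 and 12 with IFN-γ alone, against 7 and 7 in unstimulated cells. The log2 difference of the combination was -6.96 ± 1.18 from IFN-γ alone and -5.66 ± 1.41 from unstimulated cells (edgeR adjusted p of 2.27e-06 and 0.00109). CpG alone left 1 and 3 tags there. At chr17:18102988-18103257, inside a named locus, tags came with CpG late: 12 and 7 with both stimuli and 11 and 6 with CpG alone at 15 h, against none in unstimulated cells (edgeR adjusted p = 4.99e-04). It had no tag in any library of 3 h with both stimuli or CpG, 5 and 6 tags after 9 h of both stimuli, 8 and 7 after 9 h of CpG, and none with IFN-γ alone at 3, 9 or 15 h.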
